A study of Mus musculus with 2 samples.

Results

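Cells in division were picked out of epididymal white fat of mice, from its stromal vascular fraction, which is what is left of digested fat tissue once the fat cells are removed. A barcode entered when it held at least 500 detected genes, at most 20% mitochondrial unique molecular identifiers (UMIs, single captured transcripts) and at least 5 UMIs summed over 8 division genes, Mki67, Top2a, Birc5, Cenpf, Ube2c, Nusap1, Cdk1 and Ccnb2. The members were thus chosen by their own levels of these 8 genes, which are therefore no finding here. This gave 280 cycling cells among 14130 cells, 150 of 7344 in the library of mice on normal chow (NCD) and 130 of 6786 in the library of mice on a high-fat diet (HFD). Both libraries came from male wild-type C57BL/6J mice 18 weeks old, and the high-fat diet lasted 12 weeks. The tissue was digested with collagenase and sequenced by droplet capture of transcript 3′ ends. The number of mice behind each library is not given in the sources used here, and each diet has 1 library, so diet and library cannot be told apart and no test between diets was possible. All intervals below are exact 95% intervals that cover counting error only.

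A dividing cell first licenses its replication origins and copies its DNA in S phase, and then condenses and separates the chromosomes in mitosis. Genes for replication are switched on by E2F factors, and genes for mitosis follow later through the DREAM, B-MYB and FOXM1 regulators, which act at a promoter element called the CHR (cell cycle genes homology region). In fat tissue, resident and lipid-handling macrophages can renew by local division, as can dendritic cells, lymphocytes and fibroblast-like progenitors.

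The NCD library held 33825653 UMIs in 7365 barcodes and the HFD library 18623508 in 6840 barcodes. Median depth past the filter was 4237.5 UMIs per cell in NCD and 2023 in HFD, so a fixed minimum of 5 UMIs asks for a larger share of a cell's transcripts in HFD. The filter left out 21 NCD and 54 HFD barcodes, of which 1 held 5 or more UMIs of the 8 genes. The libraries shared 64 barcode sequences, and 1 of these was cycling, in NCD only. A doublet caller marked 6 of the 150 NCD cycling cells and 0 of the 130 HFD cycling cells, but in HFD its own threshold marked no cell at all, and the top 5% of scores were taken in its place, which with ties marked 422 cells (6.17%).

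The 8 genes that chose the cells are given as a description. Birc5 (survivin, of the chromosomal passenger complex; chr11:117849251-117855743) stood at 516 CPM (UMIs scaled to the same total in every sum of cells) in NCD cycling cells and 536 CPM in HFD, with a UMI in 94.0% and 90.0% of cells. Ube2c (the ubiquitin-conjugating enzyme that serves the anaphase-promoting complex; chr2:164769898-164778822) stood at 422 and 489 CPM. Top2a (topoisomerase II alpha, which untangles DNA; chr11:98992943-99024189) stood at 381 CPM (NCD) and 267 CPM (HFD). The mitotic cyclin Ccnb2 (chr9:70407692-70421547) was at 213 and 237 CPM, its kinase Cdk1 (chr10:69335146-69352938) at 154 and 200 CPM, and the spindle protein Nusap1 (chr2:119618298-119651244) at 166 and 158 CPM. Mki67 (which encodes Ki-67, the coat of mitotic chromosomes; chr7:135689784-135716361) was at 164 and 108 CPM with a UMI in 72.7% and 39.2% of cells, and the kinetochore protein Cenpf (chr1:189640606-189688086) at 148 and 111 CPM. Coordinates are those of the GRCm38 annotation. In non-cycling cells the 8 genes ranged from 0.556 to 2.29 CPM in NCD and from 3.34 to 17.0 CPM in HFD. A cycling cell held a median of 17 UMIs of the 8 genes in NCD (5 to 118) and 10 in HFD (5 to 65).

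Cells on either side of the minimum were compared through 201 other cell cycle genes that the choice did not use. Their median share of a cell's UMIs was 0.757% in NCD cells with no UMI of the 8 genes and 0.755% in such HFD cells. Just outside, the 10 NCD cells with 4 UMIs stood at 1.92% and the 46 HFD cells at 2.17%. Just inside, the 8 NCD cells with 5 UMIs stood at 3.52% and the 20 HFD cells at 2.48%, and cells with 11 or more reached 3.69% (108 cells) and 3.49% (57 cells). The cells just outside thus held more transcripts of other cycle genes than cells at 0, and in HFD they lay close to those just inside.

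The cycle genes that were high together in these cells differ in what their promoters hold, so 6 promoters are printed, the 250 bases before the RefSeq start (GRCm38.p6), each 5′ to 3′ on the gene's own strand. In the first 4, genes of mitosis, capitals mark the CHR element (TTTGAA on either strand, read TTCAAA on the other); in Mcm5 and Mcm6, subunits of the replicative helicase, they mark E2F sites (TTTCCCGC or TTTGGCGC on either strand).
Cdk1, chr10:69352913-69353162, minus strand: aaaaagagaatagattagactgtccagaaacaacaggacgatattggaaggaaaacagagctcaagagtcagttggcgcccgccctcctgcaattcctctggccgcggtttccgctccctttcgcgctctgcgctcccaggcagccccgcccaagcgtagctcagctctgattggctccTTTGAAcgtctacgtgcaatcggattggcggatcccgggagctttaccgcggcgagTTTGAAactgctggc
Top2a, chr11:99024190-99024439, minus strand: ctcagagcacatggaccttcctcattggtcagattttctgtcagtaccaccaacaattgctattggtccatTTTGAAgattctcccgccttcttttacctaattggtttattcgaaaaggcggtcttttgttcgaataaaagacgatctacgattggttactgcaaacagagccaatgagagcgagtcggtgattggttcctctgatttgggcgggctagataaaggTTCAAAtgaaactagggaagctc
Mki67, chr7:135716380-135716629, minus strand: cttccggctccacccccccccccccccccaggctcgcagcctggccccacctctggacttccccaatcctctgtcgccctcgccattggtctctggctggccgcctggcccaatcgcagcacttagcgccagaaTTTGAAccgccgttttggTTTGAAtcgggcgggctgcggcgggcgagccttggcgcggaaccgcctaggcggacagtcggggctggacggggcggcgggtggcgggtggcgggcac
Ccnb2, chr9:70421555-70421804, minus strand: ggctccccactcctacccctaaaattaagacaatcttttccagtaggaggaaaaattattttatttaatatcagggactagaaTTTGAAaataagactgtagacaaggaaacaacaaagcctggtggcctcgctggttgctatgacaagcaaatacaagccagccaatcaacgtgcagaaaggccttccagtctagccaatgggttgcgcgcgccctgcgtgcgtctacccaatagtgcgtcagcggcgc
Mcm5, chr8:75109259-75109508, plus strand: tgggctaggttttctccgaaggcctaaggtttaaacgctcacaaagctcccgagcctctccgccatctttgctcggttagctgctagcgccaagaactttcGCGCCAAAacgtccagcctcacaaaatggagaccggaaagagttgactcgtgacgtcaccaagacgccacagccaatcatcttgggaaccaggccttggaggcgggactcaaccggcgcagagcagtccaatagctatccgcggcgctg
Mcm6, chr1:128359706-128359955, minus strand: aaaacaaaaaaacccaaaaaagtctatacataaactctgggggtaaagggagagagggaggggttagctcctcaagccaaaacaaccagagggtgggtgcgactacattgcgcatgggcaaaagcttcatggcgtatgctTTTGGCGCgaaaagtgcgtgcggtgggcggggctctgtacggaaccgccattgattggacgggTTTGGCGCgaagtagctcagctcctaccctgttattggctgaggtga
The CHR letters lay at −71 and −15 from the start in Cdk1, at −179 and −23 in Top2a, at −116 and −98 in Mki67 and at −167 in Ccnb2, whose second match at +5 lies past the printed stretch. Over 300 bases (250 before to 50 after the start) the CHR letters were found in 17.9% of 32851 promoters (20.2% of 27025 genes, a gene counting once if any of its promoters matched), in 6 of the 8 rule genes, in 19 of 21 spindle genes, in 11 of 14 condensation genes and in 10 of 21 kinetochore genes. It was found in 5 of 15 licensing and helicase genes and in 2 of 20 DNA synthesis genes. E2F letters were found in 1.56% of all promoters (1.80% of genes), in 7 of 15 licensing genes, 5 of 16 repair and chromatin assembly genes, 4 of 14 condensation genes, 3 of 20 DNA synthesis genes, 0 of 14 cyclins and mitotic kinases and 0 of the 8 rule genes. CCAAT boxes (CCAAT on either strand) stood in 37.4% of promoters (41.1% of genes) and in 6 of the 8 rule genes. None of these motifs holds another within it. A match is a match of letters, not a measured binding site.

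Cycling cells were found in every class that marker genes define. A cell was called a macrophage when C1qa, C1qb and C1qc, the subunits of complement C1q, made up at least 0.5% of its UMIs; otherwise stromal when Dcn, Col1a1, Col1a2, Col3a1 and Lum made up at least 1%; otherwise lymphoid with at least 2 UMIs of Cd3e, Cd3d, Cd3g, Cd79a or Cd79b; and otherwise other, a cell of no class. NCD held 39 cycling macrophages, 5 stromal, 18 lymphoid and 88 other cells, and HFD held 58, 14, 17 and 41. Macrophages thus made up 26% (19.2 to 33.8) of cycling cells in NCD and 44.6% (35.9 to 53.6) in HFD, although they were 31.7% and 31.5% of non-cycling cells. The log2 ratio of these parts was 0.78 (0.17 to 1.40), and its interval covered 0 with at least 8 UMIs asked for (0.68) and after thinning with at least 3 UMIs (0.65) or, chosen after seeing the data, 5 UMIs (0.17; -0.81 to 1.15). Cells of no class made up 58.7% (50.3 to 66.6) and 31.5% (23.7 to 40.3) of cycling cells, against 22.0% and 14.6% of non-cycling cells. Stromal cells, the most numerous class at 43% and 50.3% of non-cycling cells, gave 3.33% and 10.8% of cycling cells.

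The cycling share of all cells was 2.04% (1.73 to 2.39) in NCD and 1.92% (1.60 to 2.27) in HFD, a ratio of 0.938 (0.736 to 1.19). In macrophages it was 1.68% (1.20 to 2.29) and 2.70% (2.05 to 3.47), a ratio of HFD to NCD of 1.61 (1.05 to 2.47). The interval of this ratio covered no difference with at least 8 UMIs asked for (log2 ratio 0.21; -0.57 to 0.99) and without Birc5, Ccnb2, Cenpf, Nusap1 or Ube2c in the sum (0.39 to 0.61). In stromal cells it was 0.161% (0.0524 to 0.376) and 0.416% (0.228 to 0.697). The lymphoid class had the largest shares, 7.11% (4.27 to 11) and 6.54% (3.85 to 10.3), followed by the other class with 5.27% (4.24 to 6.45) and 4.06% (2.93 to 5.47). Lymphoid and other cells overlapped in their intervals within each library, while the stromal share lay below every other class.

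Depth bears on these shares. When each cell was thinned to 2000 UMIs and at least 3 UMIs of the 8 genes were asked for, leaving out 613 NCD and 3295 HFD cells that were shallower (4 and 25 of them cycling), the share of all cells was 1.55% (104 of 6731) in NCD and 3.41% (119 of 3491) in HFD, a ratio of 2.21 (1.68 to 2.90). For macrophages the thinned shares were 1.38% and 4.44%, a ratio of 3.22 (2.0 to 5.26). With at least 5 UMIs asked for after thinning, an alternative chosen after seeing the data, the shares of all cells were 0.951% and 1.55%, a ratio of 1.63 (1.11 to 2.37), and those of macrophages 0.952% and 1.62%, a ratio of 1.70 (0.861 to 3.36) whose interval covers 1. The order over all cells also turned at the cells' own depth with at least 3 UMIs (log2 ratio 0.65 against -0.09), so both the minimum and the depth bear on it. Transcripts of the 8 genes were also more spread in HFD: 1 to 4 UMIs were found in 10.7% of HFD cells and 3.98% of NCD cells, and in thinned stromal cells at least 1 UMI was found in 7.17% and 1.06%.

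**Figure D1:**
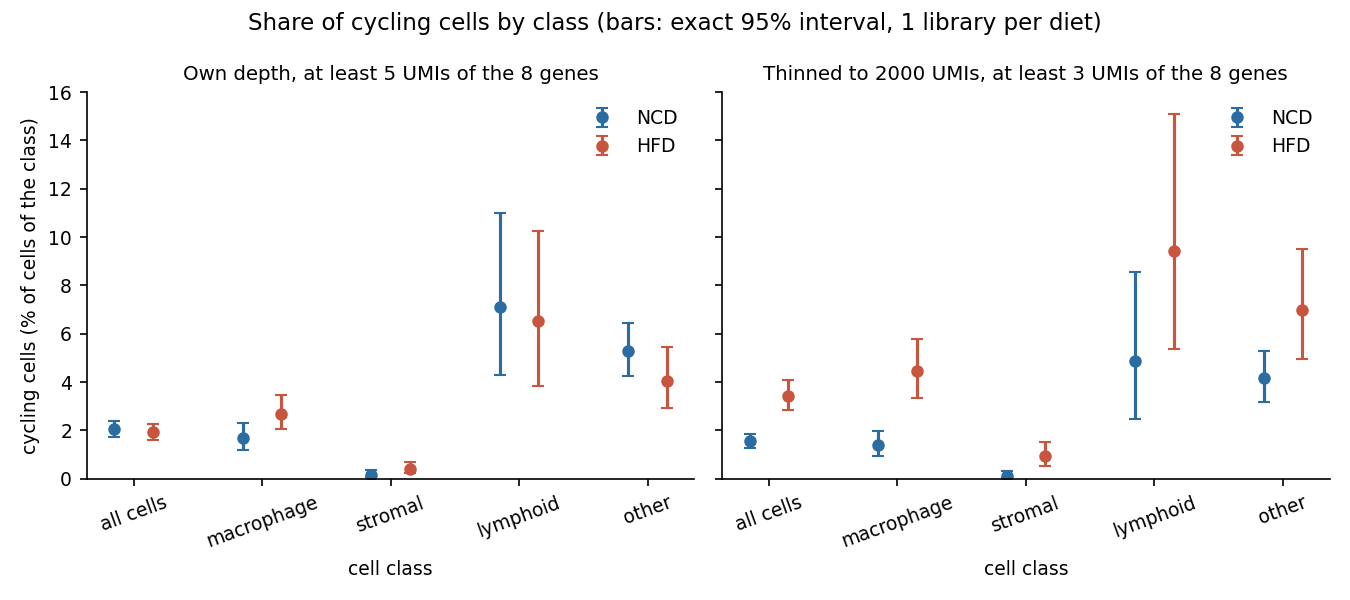
Share of cells that were cycling in each class (vertical axis, % of cells of the class, from 0), NCD in blue and HFD in red, with exact 95% intervals as bars. At each cell's own depth (left) the points for all cells stand at 2.04% and 1.92%; thinned to 2000 UMIs with at least 3 UMIs of the 8 genes (right) they stand at 1.55% and 3.41%.

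Cycling cells held about as many genes as their neighbours once depth was equal, but far more UMIs. Their median was 8718.5 UMIs against 4187 in non-cycling NCD cells (2.08 times), and 4252 against 2012.5 in HFD (2.11 times). Median genes per cell were 2549.5 against 1599 in NCD and 1593.5 against 942.5 in HFD. Thinned to 2000 UMIs, the medians were 958 against 990 genes in NCD and 944 against 945 in HFD. Since the rule asks for a fixed number of UMIs, it favours cells with many, and that part of the difference was not tested.

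Most cycling cells leaned to the mitotic side of the cycle. Of UMIs in 43 replication genes and 68 mitosis genes, a median of 28.8% belonged to replication in NCD cells (0 to 81.2%) and 28.6% in HFD cells (0 to 76.8%). Replication UMIs outnumbered mitosis UMIs in 33 of 150 NCD cells (22.0%) and 27 of 130 HFD cells (20.8%), and after thinning in 18.5% and 21.0%. The 8 genes of the rule themselves belong to G2 and mitosis, so the rule favours that side. Between classes, lymphoid cells had the largest replication part, with 8 of 18 (44.4%; 21.5 to 69.2) and 8 of 17 (47.1%; 23.0 to 72.2) cells on that side, against 9 of 39 (23.1%) and 13 of 58 (22.4%) macrophages; the intervals overlap.

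**Figure D2:**
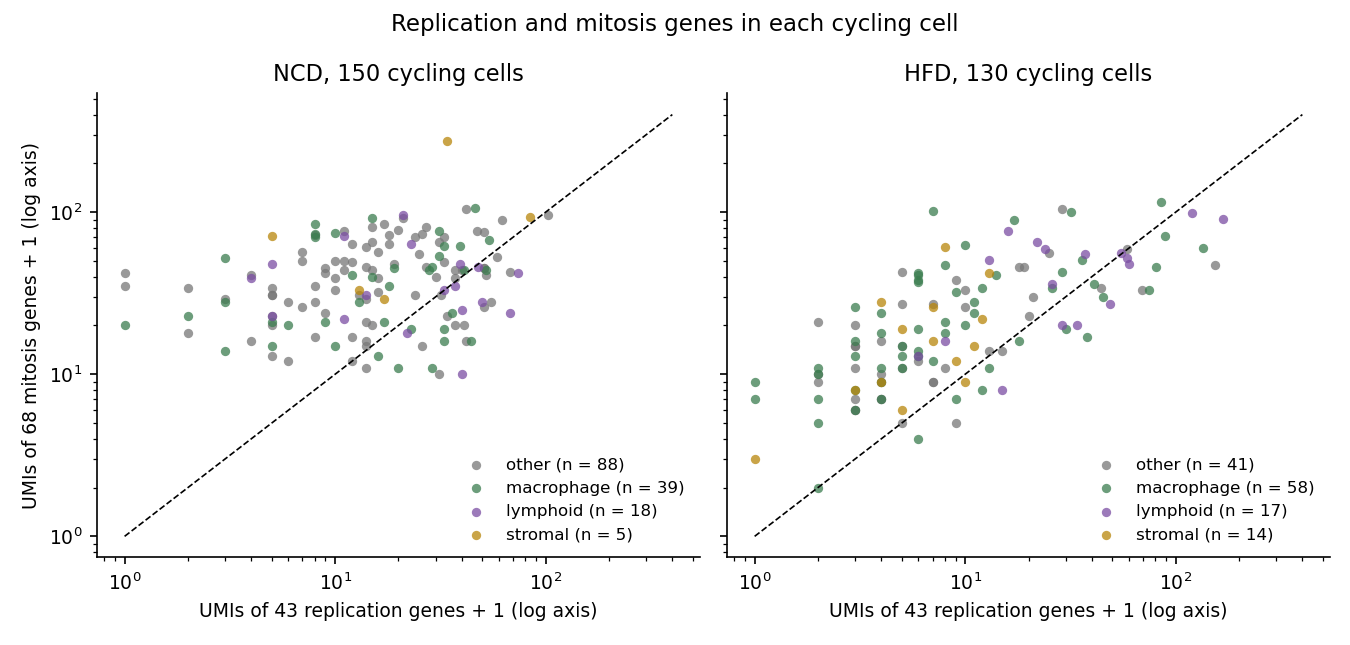
UMIs of 43 replication genes (horizontal) and of 68 mitosis genes (vertical) in each cycling cell, both plus 1 on log axes, 1 panel per library, with points coloured by class. The dashed line marks equal numbers: 33 of 150 NCD cells and 27 of 130 HFD cells lie below it, on the replication side.

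Some cells outside the rule carried replication transcripts. At least 8 UMIs of replication genes were found in 159 of 7194 non-cycling NCD cells (2.21%) and 150 of 6656 HFD cells (2.25%), against 113 of 150 and 61 of 130 cycling cells. After thinning, at least 5 such UMIs were held by 1.17% (0.924 to 1.46) of non-cycling cells in NCD and 3.78% (3.16 to 4.48) in HFD, and by 1.50% and 5.68% of non-cycling macrophages. At the cells' own depth, at least 5 such UMIs were held by 612 of 7194 NCD cells (8.51%) and 380 of 6656 HFD cells (5.71%), the opposite order.

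Within macrophages, nearly the whole division programme stood higher in cycling than in non-cycling cells, in both libraries. A gene was taken as measured when it reached 10 CPM in either sum; a gene that reaches this only in cycling cells differs by that filter, so the counts below describe and do not test. Over all genes measured so, 15.5% were at least 2-fold higher in NCD and 12.2% in HFD, with medians of 0.17 and 0.15 on the log2 scale (8233 and 7681 genes). Of the 19 licensing and helicase genes, 14 were measured in each library and 14 and 12 of them were at least 2-fold higher, with median log2 ratios of 2.95 and 1.87. Mcm5, a helicase subunit, stood at 103 CPM in cycling and 6.90 CPM in non-cycling NCD macrophages (15-fold; 9.36 to 23.4) and at 79.2 and 13.5 CPM in HFD (5.86-fold; 3.70 to 9.05). Gmnn, which blocks licensing a second time, stood at 196 and 15 CPM in NCD and 213 and 33.6 CPM in HFD.

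All 24 DNA synthesis genes were measured and at least 2-fold higher in NCD, and 20 of 22 measured in HFD, with medians of 2.43 and 1.81. The nucleotide enzymes led: Rrm2, the S-phase subunit of ribonucleotide reductase, was at 127 against 1.19 CPM in NCD (107-fold; 53.7 to 233) and 197 against 14.7 CPM in HFD (13.4-fold; 9.68 to 18.5). Thymidine kinase Tk1 was at 176 against 2.05 CPM and 232 against 17.6 CPM. Of 22 repair and chromatin assembly genes, 20 of 20 measured were past 2-fold in NCD and 15 of 17 in HFD, with the histone chaperone Asf1b at 121 against 2.70 CPM and 101 against 7.59 CPM.

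Genes of mitosis had the largest ratios. The rule chose cells by genes of G2 and mitosis, while some cells with replication transcripts remained non-cycling. The order of the lists is therefore no finding. Medians were 5.44 and 4.11 for cyclins and mitotic kinases (19 of 19 and 18 of 18 measured past 2-fold), 5.68 and 3.92 for kinetochore genes (24 of 25 and 23 of 23), 6.13 and 4.48 for spindle genes (23 of 23 and 22 of 22) and 3.51 and 2.71 for condensation genes (19 of 19 in each). The S and G2 cyclin Ccna2 stood at 134 against 0.539 CPM in NCD (249-fold; 98.1 to 810) and 161 against 4.62 CPM in HFD (34.9-fold; 21.9 to 56.9), and Ccnb1 at 114 against 0.324 CPM and 156 against 6.10 CPM. Prc1, which bundles the central spindle, was at 127 against 0.539 CPM and 128 against 3.63 CPM. Lmnb1, lamin B1 of the nuclear envelope, was at 196 against 4.96 CPM and 123 against 10.4 CPM. For each gene named from Mcm5 to Lmnb1 the level in cycling cells differed less than 2-fold between the libraries, while the level in non-cycling cells was higher in HFD.

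The other arms of the cycle were less uniform. Cdc20, an activator of the anaphase-promoting complex, was at 148 against 0.971 CPM in NCD and 164 against 5.28 CPM in HFD, and 7 of 13 and 8 of 13 genes of that list were past 2-fold. Among E2F, MYB and FOXM1 regulators and D-type cyclins 11 of 17 and 9 of 15 were past 2-fold, and the kinase Cdk4 was at 138 against 68.9 CPM and 194 against 91.2 CPM. The brakes of the cycle split, with 6 of 19 higher and 4 lower in NCD and 3 of 17 higher and 4 lower in HFD (over all genes 7.83% and 8.4% were at least 2-fold lower). The INK4 inhibitors Cdkn2c and Cdkn2d were higher, Cdkn2c at 265 against 25.7 CPM (10.3-fold; 7.88 to 13.4) and 158 against 43.5 CPM (3.64-fold; 2.69 to 4.85), while the stress gene Gadd45g was lower, at 31.0 against 67.7 CPM and 57.4 against 117 CPM. Stathmin (Stmn1), which takes microtubules apart, stood at 2188 against 33.0 CPM in NCD (66.3-fold; 57.7 to 76.2) and 1505 against 159 CPM in HFD (9.46-fold; 8.50 to 10.5).

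**Figure D3:**
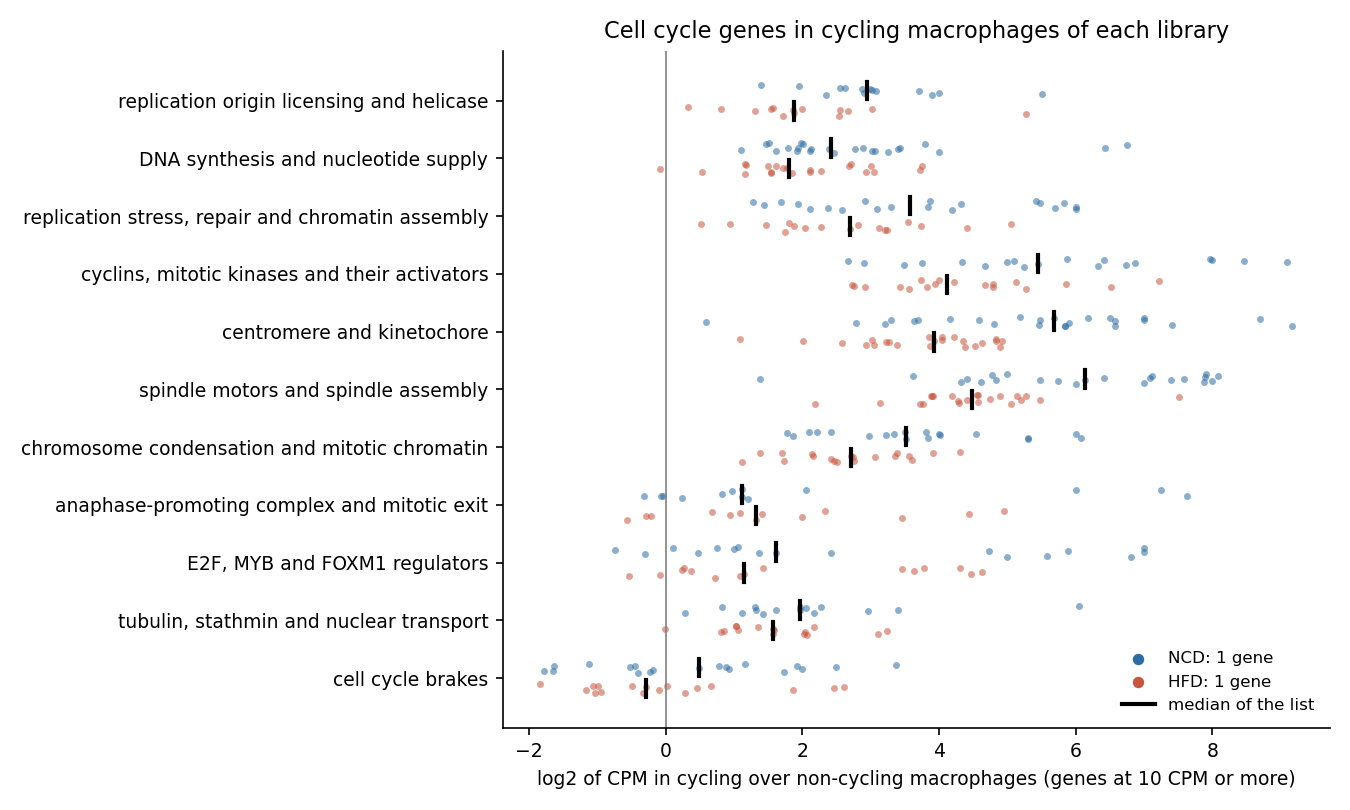
Log2 ratio of CPM in cycling over non-cycling macrophages (horizontal axis) for genes of 11 cell cycle lists at 10 CPM or more, each point 1 gene, NCD in blue and HFD in red, with a black line at each list's median. Spindle genes have the highest medians plotted (6.13 and 4.48), and the brakes lie on both sides of 0.

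Genes outside the cycle lists were higher in cycling macrophages of both libraries too. The replication-dependent histone gene Hist1h2ap, whose count is uncertain because near-identical histone genes can share reads, was at 310 against 0.863 CPM in NCD (359-fold; 175 to 858) and 197 against 4.62 CPM in HFD (42.6-fold; 27.2 to 68.5). The non-coding RNA Lockd was at 255 against 1.83 CPM and 169 against 7.59 CPM. Dnajc9, a histone chaperone, was 6.01-fold and 5.61-fold higher, and the kinetochore gene Pmf1 4.72-fold and 5.25-fold. Lsm2, of RNA processing, was 3.60-fold and 3.63-fold higher, Ccdc34 4.31-fold and 3.42-fold, and Dctpp1, a nucleotide pyrophosphatase, 3.48-fold and 3.22-fold. Arl6ip1, a membrane protein of the endoplasmic reticulum, was at 706 against 248 CPM in NCD and 740 against 238 CPM in HFD. Of respiratory chain genes, 22 of 24 were higher in NCD with a median of 0.28 and 24 of 24 in HFD with a median of 0.44. The medians over all genes were 0.17 and 0.15, also above 0, so counts of genes merely higher are not read as a result. Past 2-fold were 0 and 1 of these genes, against 15.5% and 12.2% of all genes.

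Other genes were lower in cycling macrophages of both libraries. Apolipoprotein E (Apoe) stood at 4361 CPM in cycling and 12942 CPM in non-cycling NCD macrophages (2.97-fold lower; 2.81 to 3.14) and at 6288 and 14561 CPM in HFD (2.32-fold lower; 2.22 to 2.41). Sepp1, a secreted selenium carrier, was 2.41-fold and 1.89-fold lower, and Cd74, the invariant chain of MHC class II, 1.65-fold and 2.17-fold. Jun, a stress-induced transcription factor, was 2.35-fold and 2.34-fold lower, Rhob 2.34-fold and 2.48-fold, and Mt2, a metal-binding metallothionein, 2.34-fold and 2.66-fold. Clec3b is a stromal progenitor marker, and Fabp4 is a gene of fat cells that is also in the list of lipid-associated macrophage genes. Clec3b and Fabp4 were 2.67-fold and 2.04-fold lower in NCD and 2.60-fold and 2.07-fold in HFD. Beside these, the summed level of 15 stromal progenitor markers, all with a UMI, was 1726 against 2291 CPM in NCD and 2893 against 7257 CPM in HFD, and the summed level of 15 macrophage markers, all with a UMI, was 19299 against 34238 CPM in NCD and 22398 against 34839 CPM in HFD. Their part in the result was not tested.

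Cycling macrophages of the NCD library were low in resident macrophage genes. Of 24 genes of this list 23 were measured, 0 higher and 18 at least 2-fold lower than in non-cycling NCD macrophages, with a median log2 ratio of -1.48, against 7.83% of all genes. The lectin Cd209f stood at 183 against 1274 CPM (6.98-fold lower; 5.33 to 9.32), Cd209g at 58.6 against 494 CPM and the hyaluronan receptor Lyve1 at 158 against 721 CPM (4.55-fold lower; 3.41 to 6.22). A Lyve1 UMI was found in 43.6% against 66.7% of cells, and in 35.1% against 57.2% after thinning, with 2.55% and 0.922% in non-cycling stromal cells (median 4694 UMIs) as a background. Folr2, the folate receptor of resident macrophages, was found in 54.1% against 79.7% of thinned cells (76.9% against 86.2% unthinned; 3.24% thinned background). Timd4, a receptor for dying cells, was found in 0 of 39 cells, which allows up to 7.69%, against 10.3%. After thinning it was in 0 of 37, which allows up to 8.11%, against 5.77%, so at equal depth no difference in Timd4 is read. Cycling macrophages lay more often near the C1q threshold: 18 of 39 cycling but 330 of 2284 non-cycling NCD macrophages held C1q at 0.5 to 1%, and with C1q of at least 1% asked of both, an alternative chosen after seeing the data, the median was -1.07.

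Other genes were higher in the same cells. The matrix protein Fn1 stood at 713 against 244 CPM in NCD (2.92-fold higher; 2.52 to 3.37), the monocyte chemokine receptor Ccr2 at 289 against 196 CPM and the transcription factor Bhlhe40 at 58.6 against 13.3 CPM (4.41-fold; 2.49 to 7.36). Ear2, a ribonuclease gene, was at 152 against 73.8 CPM. A UMI of Lyz1 or Ear2 was found in 40.5% against 20.7% of thinned NCD macrophages (61.5% against 28.9% unthinned; background 2.73% and 5.53%). Lipid-associated genes had a median of -0.56 there, with 2 of 20 at least 2-fold higher and 5 lower. Over all genes these shares were 15.5% and 7.83%. The lower ones were led by Apoe and the tetraspanin Cd63 (331 against 854 CPM). Markers of monocytes summed to 696 against 455 CPM with Ly6c2 and Chil3 at 0 in cycling cells, and markers of type 1 dendritic cells to 510 against 460 CPM with Xcr1, Clec9a, Itgae and Tlr3 at 0.

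In HFD the same lists differed by smaller medians, a difference between libraries that was not tested. Resident genes had a median of -0.28 (5 of 20 measured at least 2-fold lower and 1 higher, against 8.4% and 12.2% of all genes), led by Retnla, a secreted product of alternatively activated macrophages, at 164 against 1796 CPM (11-fold lower; 8.51 to 14.4). A Retnla UMI was found in 31.0% of cycling and 35.0% of non-cycling HFD macrophages, at median depths of 4313.5 and 2072 UMIs. These shares were not compared at equal depth. In NCD, Retnla stood at 12891 against 27536.5 CPM. The haemoglobin scavenger receptor Cd163 was higher, at 87.4 against 33.1 CPM, with a UMI in 8 of 58 cells (13.8%) against 6.40%, but after thinning in 2 of 45 (4.44%) against 5.33%. Lipid-associated genes had a median of 0.09, with 0 of 22 at least 2-fold higher and 2 lower (Apoe and Fabp4), and galectin-3 (Lgals3) stood at 6349 against 4157 CPM and the metalloproteinase Mmp12 at 535 against 366 CPM. MHC class II genes were lower in cycling cells of HFD, 4 of 7 at least 2-fold with a median of -1.12, and H2-Aa stood at 1795 against 4124 CPM. In NCD their median was -0.39. HFD macrophages near the C1q threshold numbered 43 of 58 cycling and 1045 of 2094 non-cycling cells.

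Lipid-associated genes were higher in HFD than in NCD macrophages, cycling and non-cycling alike. All 22 genes of that list were higher in HFD cycling macrophages, 20 of them at least 2-fold (12.3% of all 7927 genes measured), with a median log2 ratio of 2.91. In non-cycling macrophages all 22 were higher as well, 17 at least 2-fold (8.44% of genes), with a median of 2.66. Gpnmb, a lysosomal glycoprotein of lipid-loaded macrophages, was at 6.89 CPM (NCD) and 503 CPM (HFD), or 73.0-fold higher (19.9 to 607). Mmp12 had 0 UMIs in NCD and 196 in HFD (535 CPM), at least 51.8-fold higher by the floor of 3 UMIs over the group, with a UMI in 58.6% of HFD cells. The cathepsin Ctsk likewise had 0 and 102 UMIs (at least 27.0-fold higher), and osteopontin (Spp1) was at 13.8 and 300 CPM. Trem2, the lipid receptor of these cells, was at 75.8 and 1172 CPM (15.5-fold; 10.1 to 24.9), with a UMI in 28.2% of NCD and 87.9% of HFD cells. After thinning it was in 10.8% and 84.4%, against backgrounds of 0.546% and 17.1% in non-cycling stromal cells (1.55% and 20.3% unthinned, median depths 4694 and 1972 UMIs). Lipoprotein lipase (Lpl) was at 227 and 2390 CPM (10.5-fold; 8.18 to 13.7). The lipid-associated list was chosen with earlier results of these data known. In cycling macrophages, members such as Mmp12, Ctsk and Gpnmb reached 10 CPM only through HFD. The counts of this list thus describe and do not test. Diet and library cannot be told apart in these values.

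Resident genes were lower in HFD cycling macrophages, 11 of 20 measured at least 2-fold (19.4% of all genes), with a median of -1.29. Retnla was at 12891 CPM (NCD) and 164 CPM (HFD), or 78.6-fold lower (61.0 to 103). Cd209d had 43 UMIs (148 CPM) in NCD and 0 in HFD, at least 18.1-fold lower, and the chemokine Ccl24 was at 489 and 30.0 CPM. The resident list too was chosen with earlier results known, so its counts describe and do not test. In cycling macrophages Cd209d reached 10 CPM only through NCD. In non-cycling macrophages 21 of 23 resident genes were at least 2-fold lower in HFD (10.2% of all 7545 genes). Over the same 20 genes the median there was -2.79, and 17 of 20 genes had the higher ratio in cycling cells. That difference was not seen with macrophages chosen at 2000 UMIs per cell, where the medians were -2.50 and -2.69, with 8 of 20 genes higher in cycling cells. Outside these lists the lysozyme Lyz1 was at 582 CPM (NCD) and 32.8 CPM (HFD), or 17.8-fold lower (9.90 to 35.1), and in the monocyte list Ccr2 was at 289 and 49.2 CPM and Fn1 at 713 and 169 CPM. MHC class II genes were lower in 8 of 8, with a median of -1.70 against -0.98 in non-cycling macrophages. The medians over all genes were -0.07 and -0.10.

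The cycle itself differed less between the diets. Of the 8 rule genes, which chose the cells and are given as a description, 2 stood at least 2-fold lower in HFD cycling macrophages. These were Mki67 (227 and 98.3 CPM) and Top2a (451 and 205 CPM). Over all genes 19.4% were at least 2-fold lower, a share near 2 of 8. List medians from licensing to kinetochore genes lay between -0.63 and -0.09, beside a median of -0.07 for all genes. Condensation genes had the lowest cycle median, -0.74, with 8 of 19 at least 2-fold lower in HFD, against that 19.4%. Among these 8 were the condensin subunit Ncapd2 (107 and 21.9 CPM) and the lamin B receptor Lbr (145 and 41.0 CPM). Cyclin D1 (Ccnd1) was higher in HFD, at 44.8 and 112 CPM (2.50-fold; 1.31 to 5.09). Genes of other cells also differed between the libraries. The stromal marker Mfap5 was at 68.9 and 311 CPM in cycling macrophages, and a mast cell protease UMI (Cpa3, Mcpt4, Cma1 or Tpsb2) was found in 0 of 39 NCD and 24 of 58 HFD cycling macrophages (41.4%), against 46.8% of HFD non-cycling macrophages. After thinning the HFD shares were 9 of 45 cells and 35.4%, beside 33.4% of non-cycling stromal cells (41.9% unthinned). Their part in the results between diets was not tested.

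**Figure D4:**
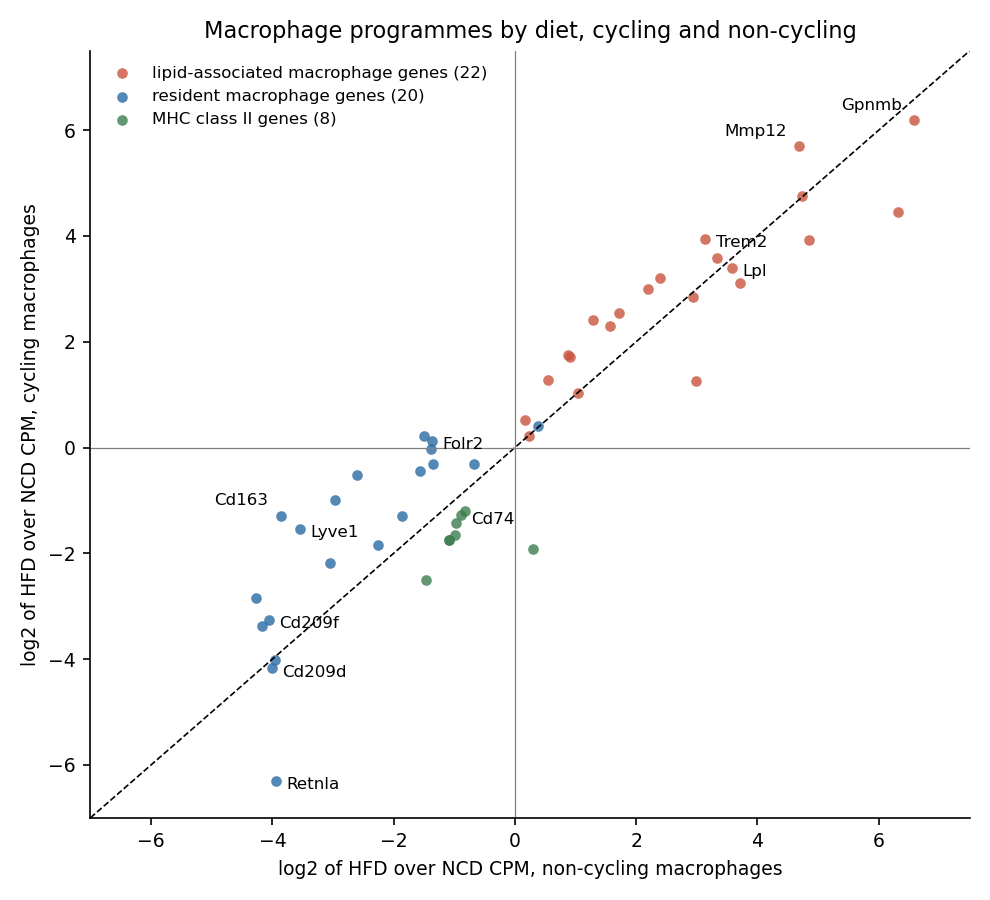
Log2 ratio of HFD to NCD CPM in non-cycling (horizontal axis) and cycling (vertical axis) macrophages, each point 1 gene of the lipid-associated (22), resident (20) or MHC class II (8) list, with a dashed line where both ratios are equal. Lipid-associated genes lie above 0 on both axes, and 17 of the 20 resident genes lie above the dashed line.

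Dendritic cell genes were found in part of the NCD cycling cells of no class. At least 3 of 10 markers of type 1 dendritic cells were held by 46 of 88 cycling cells (52.3%) against 14.9% of non-cycling cells of no class, and the markers, all with a UMI, summed to 1862 against 899 CPM. The cycling cells were deeper (median 8934.5 against 3883 UMIs), which raises such counts. Irf8, the transcription factor these cells need, stood at 627 against 239 CPM (2.62-fold; 2.37 to 2.89), Naaa at 491 against 233 CPM and Batf3 at 314 against 181 CPM. A UMI of Xcr1 or Clec9a, receptors restricted to type 1 dendritic cells, was found in 22 of 88 cells (25.0%) against 7.08%, and after thinning in 8.14% (3.34 to 16.1) against 4.27% (3.26 to 5.47), intervals that overlap, with 0.129% and 0.0683% in stromal cells. Cd209a, of type 2 dendritic cells, was found in 31.8% against 16% (18.6% against 13.6% thinned; background 1.75% and 0.922%), but at 297 against 275 CPM. It was also found in 486 of 2064 thinned non-cycling NCD macrophages (23.5%), so here it does not set dendritic cells apart from macrophages. Flt3, the growth factor receptor of dendritic precursors, was in 23.9% against 6.25% (8.14% against 2.10% thinned). All 9 MHC class II genes were higher, none at 2-fold (7.29% of all genes were), with a median of 0.47 beside -0.04 for all genes.

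Monocyte, endothelial and stromal genes were lower in these cells, but a UMI of Lyz1 or Ear2 was found in 65.9% against 35.1% of cells (46.5% against 30.3% thinned; background 5.53% and 2.73% thinned), at a summed level of 779 against 1010 CPM, so no order is read from it. Folr2 was found in 5.81% against 5.42% of thinned cells. Of 13 monocyte genes measured 7 were at least 2-fold lower (14.6% of 8277 genes were), with a median of -1.92, among them haptoglobin (Hp, 10.8 against 91.6 CPM) and Ly6c2 (9.62 against 78.1 CPM). Endothelial markers summed to 326 against 1532 CPM, with a UMI of Pecam1, Cdh5 or Kdr in 11.4% against 21.9% of cells (4.65% against 18.0% thinned; background 2.08% thinned and 3.59% unthinned). Stromal markers summed to 1957 against 6320 CPM. The cycle lists were high as in macrophages, with medians of 2.42 for licensing (15 of 15 past 2-fold, against 7.29% of genes), 5.78 for cyclins and kinases and 5.28 for spindle genes.

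In HFD the cycling cells of no class carried macrophage genes. C1q lay at 0.25 to 0.5% of UMIs, just under the macrophage threshold, in 21 of 41 cycling cells (51.2%) against 285 of 969 non-cycling cells (29.4%), where NCD had 9 of 88. Trem2 stood at 759 against 531 CPM and was found in 28 of 41 cells (68.3%) against 42.7% (57.6% against 43.5% thinned; background 17.1% thinned and 20.3% unthinned). The complement receptor C5ar1 was at 364 against 212 CPM and Pf4 at 493 against 258 CPM. Spp1 was 3.63-fold higher (2.97 to 4.41) and Mmp12 6.97-fold lower (5.26 to 9.43) among 22 lipid-associated genes, of which 1 was at least 2-fold higher and 3 lower (11.9% and 13.8% of 7760 genes). Xcr1 or Clec9a were found in 4 of 41 cells, and after thinning in 3 of 33 (9.09%) against 5.23% of non-cycling cells, beside a thinned background of 0.617% in stromal cells. Cd209a was found in 0 of 41 cells, which allows up to 7.32%, and in 0 of 33 after thinning, against 4.02%. Mast cell genes summed to 418 UMIs here, of which 1 cell held 340.

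Whether cells with dendritic cell genes were cycling more often in 1 library depended on depth and minimum, which changed together. At the cells' own depth at least 5 UMIs of the 8 genes were asked for, and after thinning at least 3. Of cells of no class with a UMI of Xcr1, Clec9a or Cd209a, 47 of 397 were cycling in NCD (11.8%; 8.83 to 15.4) and 4 of 109 in HFD (3.67%; 1.01 to 9.13), with median depths of 6077 and 2615 UMIs. After thinning the shares were 14 of 264 (5.30%; 2.93 to 8.74) and 4 of 49 (8.16%; 2.27 to 19.6), so no order is read from them. Cd209a, held by 281 of the 397 NCD cells, was also found in macrophages. With Xcr1 or Clec9a alone the shares were 22 of 134 in NCD and 4 of 58 in HFD, and after thinning 5 of 66 and 4 of 29.

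**Figure D5:**
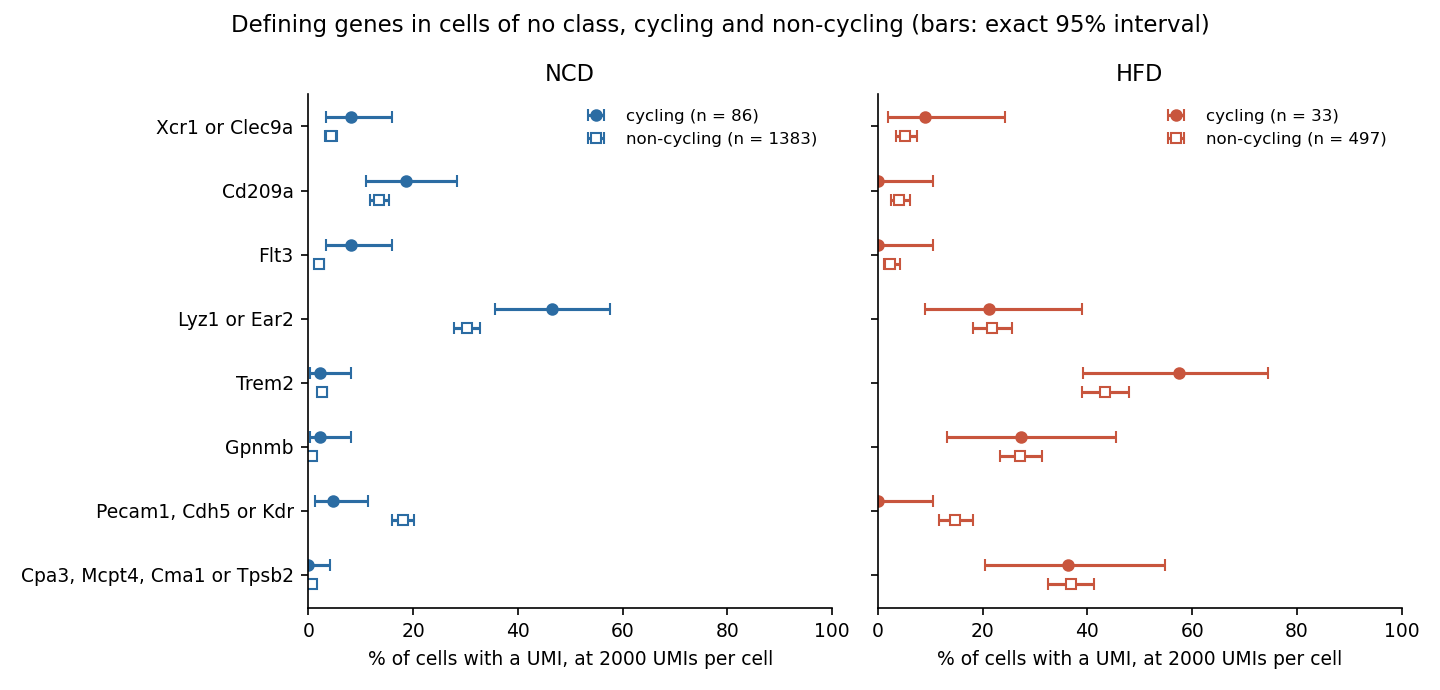
Share of cells of no class with a UMI of each named gene or gene group after thinning to 2000 UMIs (horizontal axis, %, from 0), cycling cells as filled circles and non-cycling cells as open squares, with exact 95% intervals. In NCD, Pecam1, Cdh5 or Kdr stand at 4.65% of cycling and 18.0% of non-cycling cells; in HFD, Trem2 stands at 57.6% and 43.5%.

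Cycling lymphoid cells held genes of T, B and plasma cells. The Cd3 and Cd79 genes chose this class, so their counts describe it and are no finding. In NCD 14 of 18 had a UMI of Cd3e, Cd3d or Cd3g, the T cell receptor complex, and 7 of 18 one of Cd79a or Cd79b, of the B cell receptor; in HFD these were 9 and 10 of 17. The cytotoxic coreceptor genes Cd8a or Cd8b1 were found in 6 of 18 NCD cells (33.3%) against 13.6% of non-cycling lymphoid cells (22.2% against 10.1% thinned; background 0.102% thinned), and in 6 of 17 HFD cells (35.3%) against 23.0% (25.0% against 27.3% thinned; background 1.54% thinned). Cd4 was found in 0 of 18 NCD cells, which allows up to 16.7%, and in 1 of 17 HFD cells. Jchain, Mzb1 or Derl3, genes of antibody secretion, were found in 10 of 17 HFD cells (58.8%) against 35.0% (56.2% against 31.5% thinned; background 7.53% thinned), and in 6 of 18 NCD cells (33.3%) against 30.2%. At least 3 of 9 plasma cell markers were held by 9 of 18 NCD and 7 of 17 HFD cycling cells, against 12.3% and 10.3% of non-cycling lymphoid cells, which were shallower (11837.5 against 3053 median UMIs in NCD and 10545 against 2153 in HFD). Lyz1 or Ear2, which are no lymphoid genes, were found in 7 of 18 thinned NCD cells (38.9%) against 13% of non-cycling lymphoid cells, summing to 1773 against 618 CPM, and in 0 of 16 thinned HFD cells against 6.99%. Their part in these values was not tested. Exactly 2 UMIs of the 5 lymphoid genes, the minimum, were held by 3 of all 150 NCD and 4 of all 130 HFD cycling cells. With 18 and 17 cells, no comparison between diets is drawn.

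Cycling stromal cells were few, and most of those of NCD were called doublets. Of the 5 NCD cells, 4 were called doublets, and their median depth was 15783 UMIs against 4694. All 5 held at least 3 macrophage markers, against 20.6% of non-cycling stromal cells, a count that depth raises. C1q made up at most 0.0134% of their UMIs. After thinning, Lyve1, Cd163, Folr2 and Trem2 were each found in 0 of 5, which allows up to 60%. Ptprc, which marks blood-derived cells, was found in 3, and after thinning in 2 of 5 against 1.47%. All 5 also held Pdgfra, the receptor of fibroblast progenitors, but after thinning 0 of 5 did, against 39.1% of non-cycling stromal cells. None of the 14 HFD cells was called a doublet, and their median depth was 2953.5 UMIs against 1972. All 14 held at least 3 stromal markers, and Pdgfra was found in 4 of 14 (28.6%) against 33.1% of non-cycling stromal cells, and after thinning in 1 of 11 against 30.3%. The universal progenitor gene Pi16 was found in 6 of 14 and the preadipocyte gene Col15a1 in 8 of 14. These 2 counts were taken at the cells' own depth and have no share of non-cycling stromal cells beside them. They describe the cells, and no difference from the rest of the class is read from them. Macrophage markers numbered at least 3 in 10 of the 14, against 70.6% of non-cycling stromal cells of the same library. Without cells called doublets 1 cycling stromal cell was left in NCD.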

How the data were processed

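The deposited files hold UMI counts per gene and barcode for 1 library per diet, made with Cell Ranger and Seurat and aligned to mm10 per the submitters' processing notes; the steps between reads and counts are not given in the sources used here beyond that. Counts were used as deposited. Barcodes under 500 genes or over 20% mitochondrial UMIs were dropped, and cells were cycling with at least 5 UMIs over the 8 genes. Members and gene lists were chosen with earlier results of these data known. UMIs were summed per library, class and state and given as CPM of the sum, with exact Poisson intervals for sums, Clopper-Pearson for shares and conditional binomial for ratios (95%). A sum of 0 entered at a floor of 3 UMIs. With 1 library per diet no test was run. Genes named were the 8 rule genes, up to 5 per list at 50 CPM or more by size of the log2 ratio, up to 10 each way for the main macrophage contrasts (100 CPM, a UMI in 10% of cells, ranked by the interval end nearest 1), and defining genes of each cell type; a few more list or marker members, and those of the cells of no class, were chosen after their values were seen. Classes under 20 cycling cells got shares and marker counts only, apart from the summed level of Lyz1 or Ear2 in NCD lymphoid cells. Doublets were scored with Scrublet in scanpy 1.11.5. Cells were thinned to 2000 UMIs with a fixed seed. Promoters came from RefSeq GRCm38.p6. The software was numpy 2.4.6, pandas 2.3.3 and scipy 1.17.1 under Python 3.11.15. The script was tested on simulated data with known ratios. The alternatives changed the UMI minimum, depth, rule genes, class rules, the non-cycling cells compared with, cell filter, doublets and the minimum level of a gene.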

Additional observations from a re-analysis of the deposited data

How the results depend on the processing

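No paired analysis was possible because each diet has 1 library. Over 133 alternatives to 8 results, 113 stayed within the error of the value reported, 20 moved and 0 turned a called direction. A turn could be counted only where the reported interval left out 0. It covered 0 for the cycling shares of all cells and of stromal cells, and for lipid-associated genes in cycling against non-cycling HFD macrophages. For list medians the error was the median of the members' interval ends. The cause of the moves was not tested. The log2 ratio of the cycling share, HFD over NCD, was -0.09 and became 0.75 with 0.1% of UMIs asked for, 0.61 under a stricter filter on genes and mitochondrial UMIs, 0.65 with at least 3 UMIs, -0.47 with at least 8, and 1.14 thinned with at least 3 and 0.70 thinned with at least 5 UMIs, the last chosen after seeing the data. In macrophages it was 0.68 and became 1.47, 1.32, 1.40 and 1.69 under the first 3 and the thinned minimum of 3. Its interval covered 0 with at least 8 UMIs (0.21; -0.57 to 0.99), without Ube2c (0.39; -0.27 to 1.05), Birc5 (0.42; -0.27 to 1.13), Ccnb2 (0.45; -0.20 to 1.10), Cenpf (0.53; -0.10 to 1.18) or Nusap1 (0.61; -0.012 to 1.24), and thinned with at least 5 UMIs (0.77; -0.22 to 1.75). In stromal cells it was 1.37 and became 3.75 without doublets, which leaves 1 NCD cell. The lipid-associated median of cycling over non-cycling HFD macrophages (0.09) became -0.043 with 0.1% of UMIs and -0.042 with exactly 1 class criterion. The resident median, HFD over NCD, was -1.29 and became -1.65 with 0.1% of UMIs, -1.53 with at least 3 UMIs, -2.50 thinned, and -1.52, -1.58 and -1.60 without Birc5, Ccnb2 and Cenpf. The resident median in NCD (-1.48) became -1.07 with C1q of at least 1%, chosen after seeing the data. The macrophage part of cycling cells (0.78) ranged from 0.17 to 0.86, and its interval covered 0 thinned with at least 3 or 5 UMIs and with at least 8 UMIs. The lipid-associated median between diets (2.80 to 3.0) stayed within error. Progenitor lists in stromal cells were not run, with fewer than 20 cycling cells. Depth limits shares of cells with a UMI, with medians of 2012.5 UMIs in non-cycling HFD and 4187 in non-cycling NCD cells.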
